A study of Mus musculus with 141 samples.

Results

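*Dbp* encodes a transcription factor of the PAR bZIP family whose mRNA is driven directly by the circadian clock, and it was used here to order inguinal white adipose tissue (iWAT) libraries of the HMDP, a panel of inbred mouse strains. Within each sex the libraries were ranked by the TPM of *Dbp* (a level corrected for transcript length and depth), and those at the upper end were compared with those at the lower end across all other genes. The libraries were thus chosen by their measured *Dbp* level, and 68 libraries entered the comparison. Of 65 ranked female libraries, 16 were high and 16 were low, and of 73 ranked male libraries, 18 were high and 18 were low. The mice numbered 443, 886 and 1269 were left out of the ranking, and the 70 libraries in between were kept apart as samples that the contrast did not use.

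Every mouse belonged to an inbred strain, and the strain name of 1 low male library, BXD24/TyJ-Cep290<rd16>/J, carries the rd16 allele of *Cep290*, while that of 1 low female library, BTBR T<+> tf/J, names the alleles T<+> and tf. The high-fat, high-sucrose (HF/HS) diet began at an age of 8 weeks and lasted 8 weeks, and iWAT was taken after a 4 h fast from mice held under 14 h of light and 10 h of dark. There was no chow-fed group, so every library in both *Dbp* groups shares the diet and the fast. The hour at which each tissue was collected is not given in the sources used here. The high libraries came from 27 strains and the low libraries from 28. BXD recombinant inbred strains made up 16 of the 34 high and 18 of the 34 low libraries. AXB strains gave 6 high and 2 low libraries, BXH strains 0 and 2, BXA strains 0 and 1, CXB strains 1 and 1, and classical inbred strains 11 and 10. Each library carries 1 mouse number and no strain had more than 1 ranked library per sex, so the spread between libraries holds differences between strains as well as between mice, and p-values measure that spread only.

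In nearly every tissue the clock runs as a loop with opposed arms. BMAL1 (encoded by *Arntl*) pairs with CLOCK or NPAS2 and switches on the *Per* and *Cry* genes, the nuclear receptors *Nr1d1* and *Nr1d2*, and output regulators such as *Dbp*, through E-box elements. The PER and CRY proteins then hold BMAL1 back, and the *Nr1d1* and *Nr1d2* products repress *Arntl*, *Npas2* and *Nfil3* through ROR elements, so that the BMAL1-driven genes and the *Arntl* group peak at opposite times of day.

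The gene *Dbp* lies on chr7:45705088-45710203 on the + strand (GRCm38). Promoter sequences of *Dbp* and of 5 of the clock genes that passed the test and hold a match to a clock motif are shown. The sequences are shown because these elements are where the arms of the loop meet. *Per1*, *Bhlhe41* and *Cry1* also passed the test and hold an E-box, and their sequences are not shown. Each printed sequence runs 5′ to 3′ on the strand of the gene, from 250 bases before to 50 bases after the annotated start (RefSeq, GRCm38.p6). Capitals mark an E-box (CACGTG), a D-box (TTANGTAA, the element that DBP and its relatives bind) or a ROR element (TAGGTCA) on either strand.

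Dbp, chr7:45704997-45705296, + strand: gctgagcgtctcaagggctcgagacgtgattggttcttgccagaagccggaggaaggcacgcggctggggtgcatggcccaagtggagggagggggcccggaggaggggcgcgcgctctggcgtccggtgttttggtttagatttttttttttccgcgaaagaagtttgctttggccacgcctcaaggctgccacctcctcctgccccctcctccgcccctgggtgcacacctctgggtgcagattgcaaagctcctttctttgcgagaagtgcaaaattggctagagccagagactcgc
Tef, chr15:81802423-81802722, + strand: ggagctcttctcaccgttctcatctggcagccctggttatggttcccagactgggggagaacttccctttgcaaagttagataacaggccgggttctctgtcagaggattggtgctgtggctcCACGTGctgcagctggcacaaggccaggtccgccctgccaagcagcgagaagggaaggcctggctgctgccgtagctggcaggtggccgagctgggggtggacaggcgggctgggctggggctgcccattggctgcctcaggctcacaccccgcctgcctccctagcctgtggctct
Ciart, chr3:95882179-95882478, - strand: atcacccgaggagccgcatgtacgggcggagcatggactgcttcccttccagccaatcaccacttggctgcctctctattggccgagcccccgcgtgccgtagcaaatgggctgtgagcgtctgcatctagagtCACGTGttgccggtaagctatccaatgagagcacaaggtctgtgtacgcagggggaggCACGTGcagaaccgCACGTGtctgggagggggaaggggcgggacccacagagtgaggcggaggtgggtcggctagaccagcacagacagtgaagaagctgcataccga
Per3, chr4:151044616-151044915, - strand: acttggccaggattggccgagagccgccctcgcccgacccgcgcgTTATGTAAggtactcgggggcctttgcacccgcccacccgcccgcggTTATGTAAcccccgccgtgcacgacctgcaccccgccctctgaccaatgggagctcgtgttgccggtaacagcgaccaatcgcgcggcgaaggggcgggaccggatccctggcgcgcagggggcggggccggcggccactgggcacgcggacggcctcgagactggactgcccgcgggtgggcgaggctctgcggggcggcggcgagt
Arntl, chr7:113207261-113207560, + strand: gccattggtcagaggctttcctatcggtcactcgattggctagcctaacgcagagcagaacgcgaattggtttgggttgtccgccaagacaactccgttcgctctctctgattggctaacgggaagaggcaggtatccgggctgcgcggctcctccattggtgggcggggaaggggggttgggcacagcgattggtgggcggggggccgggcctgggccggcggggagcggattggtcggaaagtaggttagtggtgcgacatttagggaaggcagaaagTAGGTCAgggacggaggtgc
Nfil3, chr13:52980990-52981289, - strand: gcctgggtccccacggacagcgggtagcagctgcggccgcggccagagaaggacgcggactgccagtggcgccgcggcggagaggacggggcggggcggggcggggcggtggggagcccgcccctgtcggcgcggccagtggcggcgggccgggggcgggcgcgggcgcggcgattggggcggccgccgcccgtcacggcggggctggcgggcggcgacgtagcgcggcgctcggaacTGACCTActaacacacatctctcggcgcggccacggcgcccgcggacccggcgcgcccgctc

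*Ciart* held 3 E-boxes, the nearer pair starting 58 and 44 bases before the start of the gene, and *Tef* held 1. *Per3* held 2 D-boxes, at 205 and 158 bases before the start. *Arntl* held a ROR element 30 bases after its start and *Nfil3* held one on the other strand 12 bases before its start. The window of *Dbp* held none of these letters. Of the 21 genes looked up (*Dbp* and the 20 members of the evening and morning lists below), 18 had a promoter in the table. The E-box letters were found in 4 of 9 matched evening-arm genes (*Per1*, *Ciart*, *Bhlhe41* and *Tef*) and 1 of 8 matched morning-arm genes (*Cry1*), against 8.09% of all 27025 genes in the table. The ROR letters were found in 0 of 9 and 2 of 8, against 2.97% of all genes. The D-box letters were found in *Per3* and *Rorb*, against 2.72% of all genes, and a cAMP response element (TGACGTCA) in *Hlf*, against 2.03%. These matches are descriptions of sequence and say nothing of binding in these samples.

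The level of *Dbp* chose the libraries, so its values in the groups are given as a description and its difference between them was not tested. It spanned a 21.2-fold range over female libraries, from 6.83 to 145 TPM with a median of 32.6 TPM, and a 17.7-fold range over male libraries, from 6.59 to 116.6 TPM with a median of 26.1 TPM. Low libraries ranged from 6.83 to 19.2 TPM in females (median 15.3, n = 16) and from 6.59 to 14.98 TPM in males (median 11.8, n = 18). High libraries ranged from 57.1 to 145 TPM in females (median 69.9, n = 16) and from 44.2 to 116.6 TPM in males (median 68.8, n = 18). The values next to the limits were close. In females, the nearest libraries outside the groups were at 20.8 and 55.7 TPM, and in males at 15.4 and 40.9 TPM. The levels did not fall into separate groups at these limits. As ratios of neighbouring values, the widest steps lay among female libraries at the far ends, from 6.83 to 10.5 TPM and from 95.8 to 145 TPM. The fewest estimated counts of *Dbp* in any compared library were 151.

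**Figure D1:**
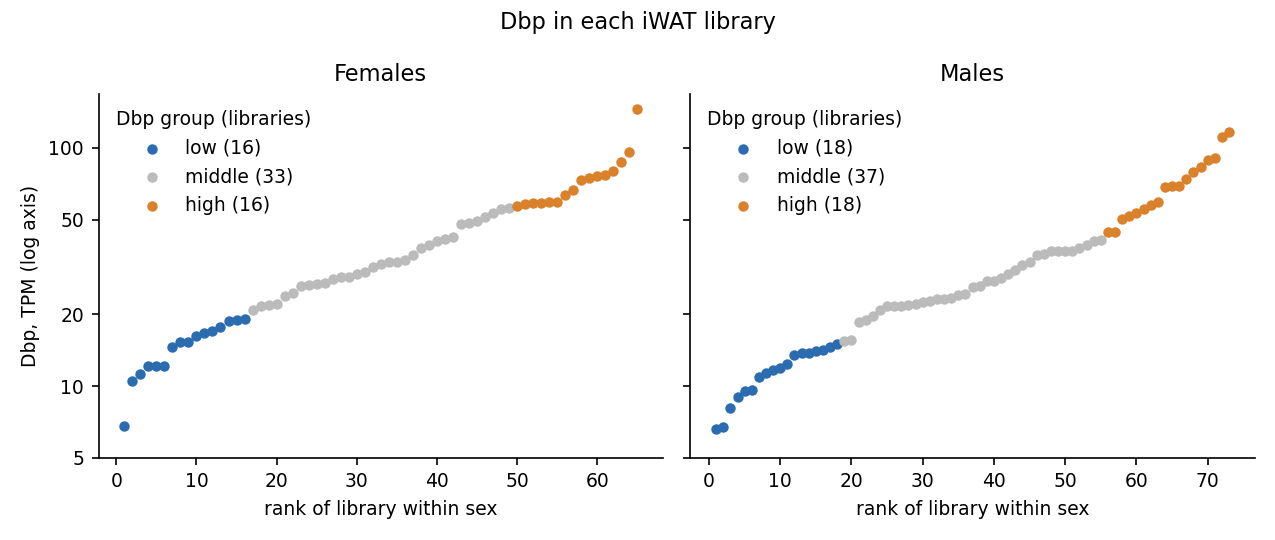
Dbp in TPM (log axis) against the rank of the library within females (left) and males (right), 1 point per library, blue for low, grey for middle and orange for high. Values rise from 6.83 to 145 TPM in females, with a wide step at each end, and from 6.59 to 116.6 TPM in males.

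The 68 libraries held from 22912977 to 78562648 estimated counts, and the medians by sex and group lay between 30220771 and 31364406. The share of counts on mitochondrially encoded genes ranged from 3.99% to 25.1%, with medians of 7.75% in low and 8.90% in high females and of 9.71% in low and 8.16% in high males. The male CXB11/HiAJ library, in the high group, was the deepest, with 78562648 counts and a 25.1% mitochondrial share.

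High *Dbp* went with high levels of most other BMAL1-driven clock genes and with low levels of *Arntl*, *Npas2* and *Nfil3*. The exceptions among the BMAL1-driven genes were *Cry1*, which was lower, and *Cry2*, which did not pass the test below. Among 17167 genes tested with edgeR's quasi-likelihood test, adjusted for sex, 57 were higher (0.332% of those tested) and 59 were lower (0.344%) in high-*Dbp* libraries at a Benjamini-Hochberg adjusted p under 0.05. Here and below, a gene that rose or fell is one that passed this test between high and low libraries, which measures covariation with *Dbp* over these libraries and not a change over time. Of the 11 listed genes of the evening arm, which are switched on by BMAL1, 10 rose and none fell, with a median log2FC of 1.01 over the list against 0.00 over all genes tested. Of the 9 listed genes of the morning arm, which ROR elements or the opposite phase mark, 5 fell and none rose, with a median of -0.29. A Benjamini-Hochberg adjusted p of the edgeR test over all genes is meant by adjusted p unless another tool is named.

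*Nr1d2*, which encodes the repressor REV-ERBβ, had the lowest p of all genes. Its level ranged from 47.6 to 85.9 CPM (counts as a share of the TMM-scaled library size) in low female libraries and from 89.4 to 171 CPM in high ones. In males it ranged from 42.7 to 80.6 CPM in low and from 85.6 to 163 CPM in high libraries. The groups did not overlap in either sex. Its log2FC was 0.95 ± 0.06 (SE, edgeR's quasi-likelihood test, adjusted p = 5.1e-19), a 1.93-fold higher level. *Nr1d1*, which encodes the related repressor REV-ERBα, had medians of 62.97 and 151 CPM in low and high females and of 97.4 and 166 CPM in low and high males. Its groups overlapped in both sexes, and its log2FC was 0.98 ± 0.13 (adjusted p = 3.2e-07). The 3′ end of *Nr1d1* shares 1075 bases with *Thra* on the other strand, and the libraries were stranded, while whether the quantification used strand is not given in the sources used here. *Thra* itself had a log2FC of -0.03 ± 0.08.

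The period genes, whose proteins form the inhibitory complex with the CRY proteins, did not move by the same amount. *Per3* ranged from 13.7 to 38.6 CPM in low and from 34.6 CPM upwards in high females (medians 26.9 and 61.1), and from 19.7 to 59.7 CPM in low and from 41.1 to 90.5 CPM in high males. In females 15 of 16 high libraries were above every low library, and in males 14 of 18. Its log2FC was 1.24 ± 0.10 (edgeR, adjusted p = 2.3e-15). *Per2* had medians of 13.6 and 27.3 CPM in low and high females and of 11.5 and 30.9 CPM in low and high males, with a log2FC of 1.22 ± 0.13 (adjusted p = 3.1e-10). *Per1*, which is also induced by glucocorticoids and other acute signals, had the smallest rise of the 10, with a log2FC of 0.55 ± 0.14 (edgeR, adjusted p = 0.029), and did not pass with strain as a random block in limma-voom (adjusted p = 0.069). It was above the low median of its sex in 27 of 34 high libraries, against 34 of 34 for *Per2* and *Per3*. *Cry2* was above that median in 28 of 34, and its log2FC of 0.33 ± 0.10 did not pass the test (adjusted p = 0.13). *Cry2* passed it in 5 of 21 alternative analyses.

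The largest rise among the clock genes belonged to *Ciart*, which encodes the repressor CHRONO. It was scarce, from 0.562 to 1.39 CPM in low and from 1.33 to 5.74 CPM in high females, and from 0.268 to 1.53 CPM in low and from 1.39 to 7.82 CPM in high males. In males, 16 of 18 high libraries were above every low library. Its log2FC was 1.63 ± 0.15 (edgeR, adjusted p = 8.7e-13), a 3.09-fold higher level. The other repressors on E-boxes, *Bhlhe40* (DEC1) and *Bhlhe41* (DEC2), had log2FCs of 1.02 ± 0.13 and 0.85 ± 0.13. *Bhlhe41* rose by 1.17 in males (adjusted p = 3.7e-06) and had a log2FC of 0.49 in females (adjusted p = 0.28). This difference between the sexes did not pass its own test (adjusted p = 0.24).

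*Tef* and *Hlf*, the other members of the PAR bZIP family, rose with *Dbp*. *Tef* ranged from 22.9 to 108.1 CPM in low and from 83.4 to 242 CPM in high females. In males it ranged from 49.2 to 91.2 CPM in low and from 99.4 to 193 CPM in high libraries, with no overlap. Its log2FC was 1.18 ± 0.09 (edgeR, adjusted p = 5.0e-16). *Hlf* had medians of 20.6 and 32.4 CPM in low and high females and of 14.4 and 33.4 CPM in low and high males, with a log2FC of 1.01 ± 0.14 (adjusted p = 1.4e-06). Both were above the low median of their sex in 34 of 34 high libraries.

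**Figure D2:**
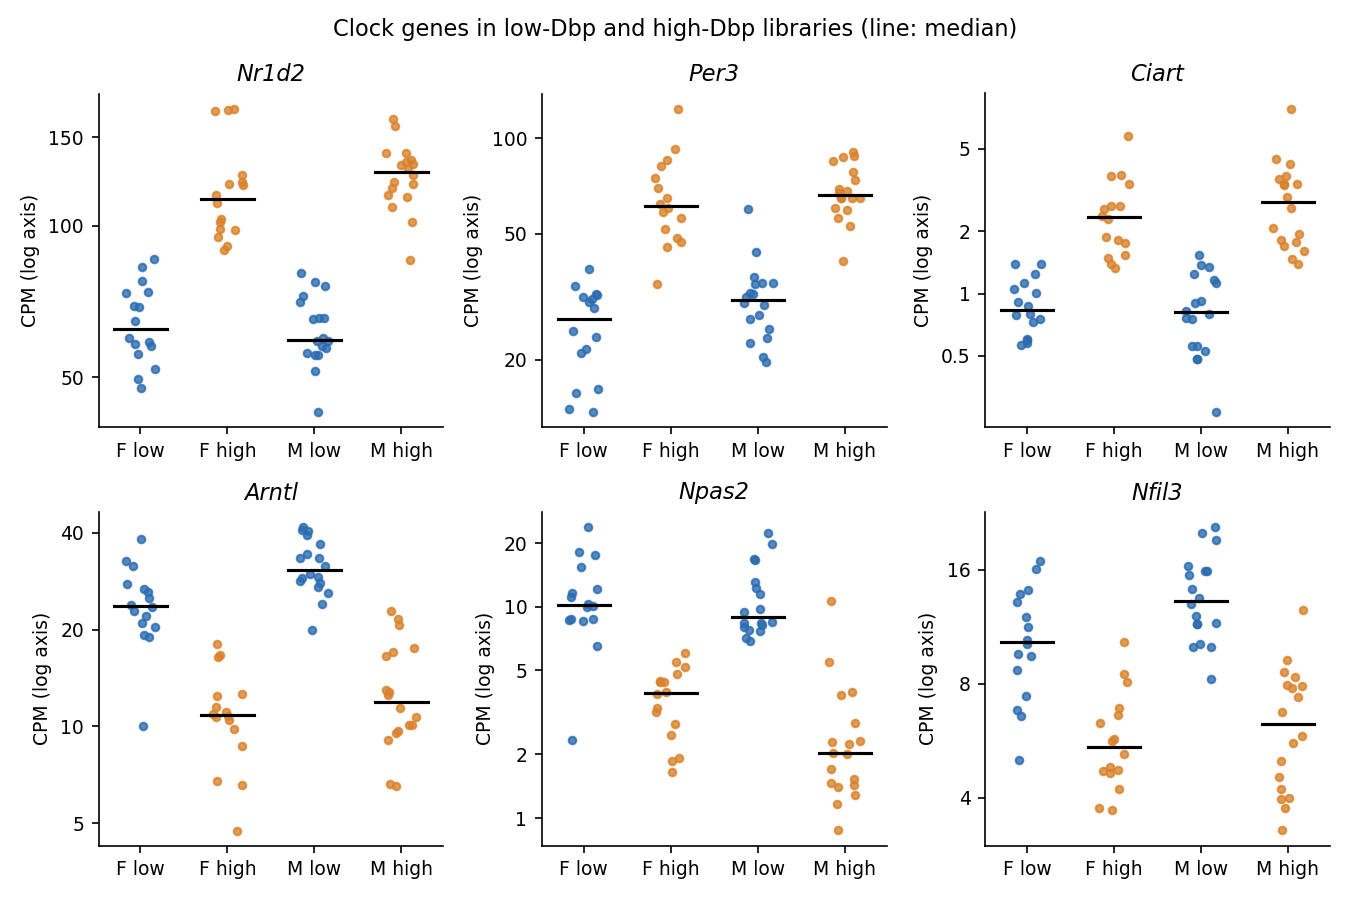
CPM (log axes) of 3 evening-arm genes (top) and 3 morning-arm genes (bottom), 1 point per library, in low (blue) and high (orange) libraries of females (F) and males (M), with lines at the medians. Nr1d2 does not overlap between the groups in either sex, and the Npas2 median falls from 10.2 to 3.90 CPM in females and from 8.96 to 2.02 CPM in males.

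On the morning arm, *Npas2*, a partner of BMAL1 that can stand in for CLOCK, had the largest difference of any clock gene. It ranged from 2.35 to 23.8 CPM in low and from 1.65 to 6.06 CPM in high females, and from 6.87 to 22.4 CPM in low and from 0.873 to 10.6 CPM in high males. In males 17 of 18 high libraries were below every low library. In females, 15 of 16 low libraries were above every high library, and the other low library was at 2.35 CPM. The log2FC was -1.86 ± 0.18 (edgeR, adjusted p = 3.1e-12), a 3.62-fold lower level in high libraries.

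*Arntl* ranged from 10 to 38.2 CPM in low and from 4.75 to 17.97 CPM in high females, and from 20 to 41.6 CPM in low and from 6.55 to 22.8 CPM in high males. All 34 high libraries were below the low median of their sex. The log2FC was -1.20 ± 0.11 (edgeR, adjusted p = 1.9e-13), a 2.30-fold lower level. *Nfil3*, which encodes E4BP4, the repressor that competes with DBP for D-boxes, was likewise below the low median in 34 of 34 high libraries. Its medians were 10.3 and 5.44 CPM in low and high females and 13.3 and 6.28 CPM in low and high males, and its log2FC was -0.99 ± 0.11 (adjusted p = 1.7e-09).

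*Cry1* and *Clock* fell by less. *Cry1*, whose peak is known to come later than that of the other E-box genes, had a log2FC of -0.35 ± 0.06 (edgeR, adjusted p = 7.0e-04), with medians of 14.3 and 9.94 CPM in low and high females and of 14.8 and 11.5 CPM in low and high males. *Clock* had a log2FC of -0.29 ± 0.08 (adjusted p = 0.040), a call that limma-voom did not make (adjusted p = 0.053, and 0.096 with strain as a random block). The remaining 4 morning-arm genes did not pass the test. *Rora* and *Rorb* encode activators that bind ROR elements, and their log2FCs were -0.04 ± 0.08 and -0.05 ± 0.12. *Arntl2*, the paralog of *Arntl*, had a log2FC of -0.16 ± 0.14.

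**Figure D3:**
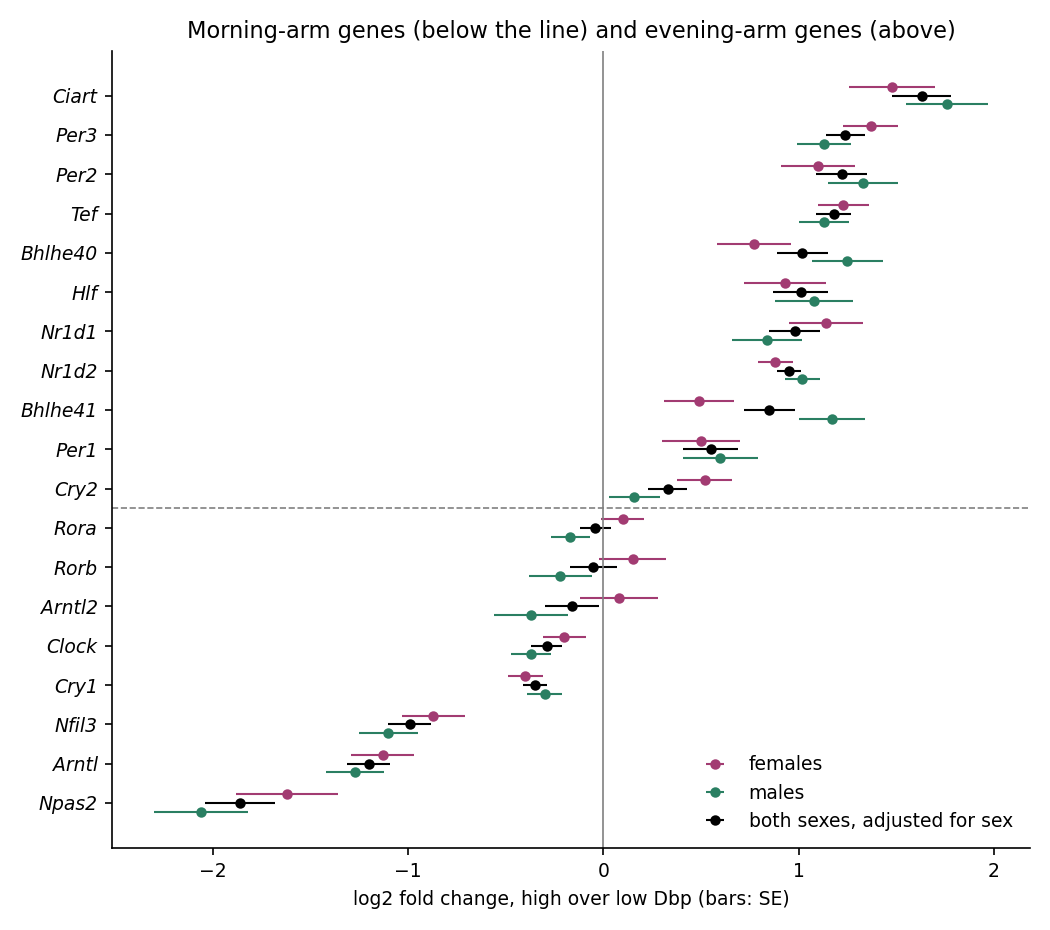
log2FC of high over low Dbp libraries with its SE for the 11 evening-arm genes (above the dashed line) and 8 morning-arm genes (below it), in both sexes together (black), females (magenta) and males (green). Evening-arm values run from 0.33 to 1.63 and morning-arm values from -1.86 to -0.04 with both sexes together.

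The contrast was then taken in each sex from 1 fit. In females, 12 genes were higher (0.0699% of those tested) and 24 were lower (0.14%), and in males 37 were higher (0.216%) and 19 were lower (0.111%). Of the evening arm, 7 of 11 rose in females and 9 of 11 in males, with medians of 0.93 and 1.13. Of the morning arm, 4 of 9 fell in females and 3 of 9 in males. *Arntl* had a log2FC of -1.13 in females and -1.27 in males, and *Npas2* of -1.62 and -2.06. The difference between the sexes was tested for every gene, and 1 gene passed (0.00583%), the basal keratin *Krt14*, which is no clock gene. It had at most 2 counts in any low male library, so this call rests on a gene near 0 in males. Among the 20 clock genes the lowest adjusted p of the sex difference was 0.24. By unadjusted p under 0.05 the sex difference counted 2953 genes, and limma-voom called 0.

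The 70 middle libraries gave values on mice that the contrast did not use, although some were of the same strains. In them *Dbp* spanned 2.68-fold in females and 2.65-fold in males. The slope on log2 *Dbp* TPM, adjusted for sex, was called for 11 genes (0.0641% of those tested). *Nr1d2* had the lowest p, with a slope of 0.38 ± 0.05 (SE, edgeR's quasi-likelihood test, adjusted p = 5.8e-06), and it was the 1 gene that limma-voom called there. Of the 57 genes that were higher in high-*Dbp* libraries, 57 had a positive slope, and of the 59 that were lower, 55 had a negative slope. Over the 17051 genes that were not called, 68.1% had a slope of the same sign as their log2FC. An unadjusted p under 0.05 with the same sign was reached by 27 of the genes called higher and 21 of those called lower, against 889 of the 17051 others (5.21%).

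All 11 evening-arm genes had a positive slope in the middle libraries, 7 of them at an unadjusted p under 0.05, and 5 morning-arm genes had a negative slope at that level. *Nr1d1* had a slope of 0.61 ± 0.14, *Ciart* of 0.52 ± 0.15 and *Nfil3* of -0.55 ± 0.13. *Per2* (0.29 ± 0.17) and *Hlf* (0.19 ± 0.14) did not reach an unadjusted p under 0.05. In the same libraries, all 9 mammary epithelial markers had a slope above 0 (median 1.16), 6 of them at an unadjusted p under 0.05. The 8 brown and beige markers had a median slope of -0.74, with 6 below 0, and edgeR called 0 markers of either list. Of the 10 skeletal muscle markers, 1 was called in the middle libraries by edgeR and 0 by limma-voom. Their slopes were all above 0 there, with a median of 3.86, whereas their log2FCs between high and low libraries were all below 0. Of the 11 genes called in the middle libraries, *Ryr1* (2.98 ± 0.67), the calcium release channel of muscle and 1 of these markers, *Pygm* (3.12 ± 0.65), the muscle glycogen phosphorylase, and *Hrc* (3.05 ± 0.67), a calcium-binding protein of the sarcoplasmic reticulum, were called beside *Nr1d2*, and were chosen after their values were seen. With the adipocyte, mammary, lymph node and muscle markers as covariates, an alternative added after seeing the data, 8 genes were called in the middle libraries and these 3 were not (adjusted p from 0.27 to 0.56). Because *Ryr1* is itself 1 of the muscle markers, the loss of its call was built into this model and decides nothing. The 8 then included the clock genes *Nr1d2* (0.37 ± 0.05), *Nr1d1* (0.58 ± 0.11), *Tef* (0.32 ± 0.06) and *Nfil3* (-0.55 ± 0.12), and *Gpr146* (0.31 ± 0.06), a receptor gene described below.

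**Figure D4:**
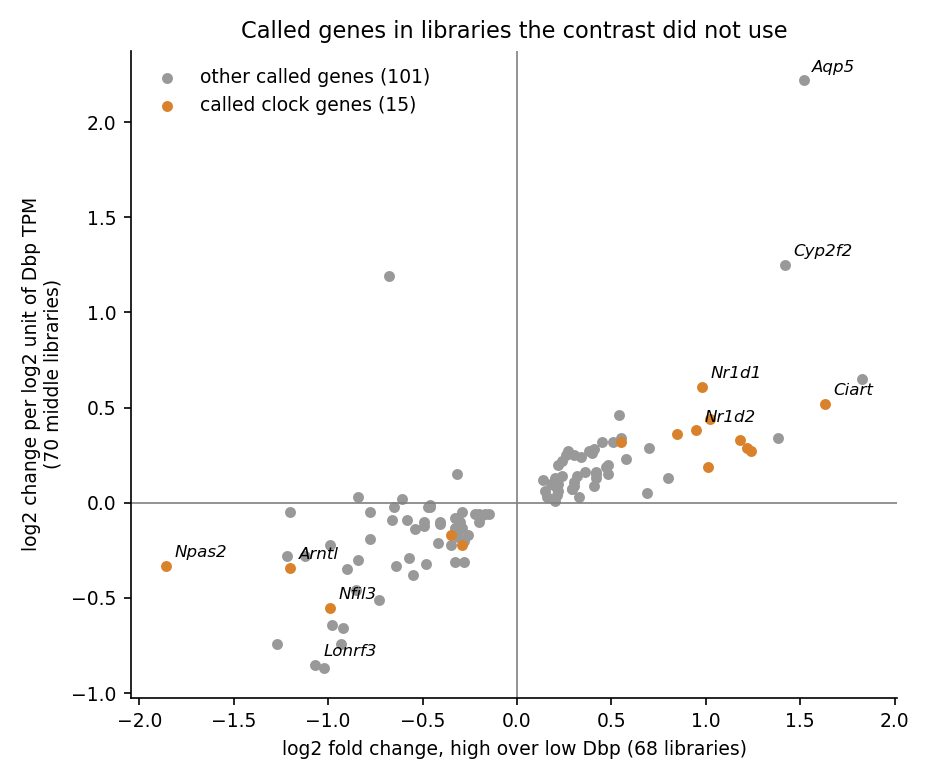
Each point is 1 of the genes called higher (57) or lower (59), with its log2FC between high and low libraries on the x axis and its slope per log2 unit of Dbp TPM in the 70 middle libraries on the y axis, orange for clock genes and grey for others. All 57 higher genes and 55 of the 59 lower genes lie in the quadrants of equal sign.

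Outside the core loop, of 18 listed genes that cycle in many tissues, 3 rose and 5 fell, with a median log2FC of 0.05. *Tspan4*, a tetraspanin, and *Tns2*, which encodes the focal adhesion protein tensin 2, rose by 0.42 ± 0.08 and 0.55 ± 0.12. *Tns2* medians were 101.6 and 172 CPM in low and high females and 178 and 239 CPM in low and high males, with overlap in both sexes. The genes that fell included *Cdkn1a*, described below, *Lonrf3*, a RING finger gene, and *Dtx4*, an E3 ubiquitin ligase gene, the last 2 with log2FCs of -1.07 ± 0.17 (edgeR, adjusted p = 2.0e-05) and -0.84 ± 0.13 (adjusted p = 8.3e-06). *Por*, the electron donor of the microsomal cytochrome P450 enzymes, rose by 0.47 ± 0.10 (adjusted p = 0.0078), and *Leo1* and *Litaf* had log2FCs of -0.30 and -0.29. These last 3 fell outside the rule for named genes and were chosen after their values were seen. *Wee1* (0.26 ± 0.10) and *Usp2* (0.22 ± 0.12), both known as clock outputs, did not pass the test. Of the 15 genes that act on clock proteins, such as the casein kinases *Csnk1d* and *Csnk1e*, 0 were called by edgeR, DESeq2 or limma-voom. Of these 15, 2 had an unadjusted p under 0.05 (edgeR), as had 1611 of all 17167 genes, and their log2FCs ran from -0.04 to 0.22 over the list. With 0.332% of all genes called higher and 0.344% lower, 0 of 15 does not set this list apart.

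Among genes outside the clock lists, *Gpr146*, an orphan G protein-coupled receptor, had the lowest p of those that rose, with a log2FC of 0.51 ± 0.08 (edgeR, adjusted p = 2.6e-05). Its medians were 45.4 and 62.7 CPM in low and high females and 56.2 and 80.8 CPM in low and high males. Of those that fell, *Adamts4*, an aggrecan-cleaving protease, had medians of 8.30 and 3.55 CPM in low and high females and of 9.22 and 4.86 CPM in low and high males. It was below the low median in 33 of 34 high libraries, with a log2FC of -0.99 ± 0.17 (adjusted p = 3.2e-04). *Osgin1*, an oxidative stress response gene, had a log2FC of -0.90 ± 0.16, *Arhgap20* of -0.78 ± 0.15 and the Wnt receptor gene *Fzd5* of -0.57 ± 0.11.

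Genes of fasting and of the glucocorticoid response fell and rose in part. Of 20 listed glucocorticoid-responsive genes, 2 rose and 3 fell, and the median log2FC was -0.09. Those that rose were *Per1* and *Klf15*, a Krüppel-like factor (0.58 ± 0.15, adjusted p = 0.037), and those that fell were *Cdkn1a*, *Pdk4* and *Angptl4*. *Klf15* had a log2FC of 0.85 in females (adjusted p = 0.057) and of 0.35 in males (adjusted p = 0.33). Its male medians were 33.4 CPM in low and 31.8 CPM in high libraries. The sex difference of *Klf15* did not pass its own test (adjusted p = 0.34). *Pdk4* encodes a kinase that shuts off pyruvate dehydrogenase during fasting. Its medians were 222 and 115 CPM in low and high females and 290 and 183 CPM in low and high males, and its log2FC was -0.92 ± 0.22 (edgeR, adjusted p = 0.025). *Angptl4*, an inhibitor of lipoprotein lipase, had a log2FC of -0.49 ± 0.13 (adjusted p = 0.040), and *Cdkn1a*, the cell cycle inhibitor p21, of -0.85 ± 0.19 (adjusted p = 0.0078). *Fkbp5* and *Tsc22d3*, the classic targets of the glucocorticoid receptor, had log2FCs of -0.11 ± 0.19 and -0.06 ± 0.15, with adjusted p of 0.89 and 0.92. *Pdk4* and *Angptl4* were also the 2 called of 17 genes of lipolysis and fasting. *Fosl2*, an AP-1 subunit gene, was the 1 called of 18 immediate early genes, with a log2FC of -0.42 ± 0.11. By limma-voom *Pdk4*, *Angptl4* and *Fosl2* did not pass (adjusted p = 0.059, 0.17 and 0.055), and with the bin of mouse number as a covariate (described below) *Per1*, *Klf15*, *Pdk4*, *Angptl4* and *Fosl2* did not pass (adjusted p from 0.091 to 0.18). Without the male CXB11/HiAJ library *Klf15* did not pass either (adjusted p = 0.082).

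Of 12 heat- and cold-responsive genes, 2 fell and 0 rose. These were *Hsph1* (-0.33 ± 0.07, edgeR adjusted p = 0.0079) and *Hspa5*, the endoplasmic reticulum chaperone BiP (-0.26 ± 0.07, adjusted p = 0.042). *Hsp90b1* (-0.20 ± 0.04), *Calr* (-0.19 ± 0.05) and *Manf* (-0.22 ± 0.06), which also act in that compartment, passed as well. These are among 10 chaperone genes of that compartment that were looked up after values were seen, of which 4 fell and 6 did not pass (adjusted p from 0.068 to 0.56). The cold-inducible *Cirbp* and *Rbm3* had log2FCs of 0.21 ± 0.09 and 0.03 ± 0.07 and did not pass the test. With the bin of mouse number as a covariate, *Hsph1* and *Hspa5* had adjusted p of 0.11 and 0.089, and with strain as a random block in limma-voom *Hspa5* had an adjusted p of 0.063.

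Of 61 genes in 4 metabolic lists, 0 were called by edgeR, DESeq2 or limma-voom, and 4 had an unadjusted p under 0.05. The lists were lipogenesis (15 tested, median 0.11), sterol synthesis (18 tested, median -0.03), insulin and nutrient signalling (15 tested, median -0.00) and the 13 mitochondrially encoded genes (median 0.06). The medians of females and males had opposite signs for lipogenesis (0.47 and -0.22), sterol synthesis (0.07 and -0.06), insulin and nutrient signalling (0.01 and -0.05) and the mitochondrially encoded genes (0.22 and -0.05), and these differences were not tested over the lists. Over all 17167 genes tested, 1611 had an unadjusted p under 0.05. Of all genes, edgeR called 0.332% higher and 0.344% lower, so 0 of 61 does not set these lists apart.

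The largest log2FCs at or above 1 CPM included genes carried by a few libraries. *Vmn2r99*, a vomeronasal receptor gene, had similar medians in low and high groups (1.08 and 1.11 CPM in females, 1.11 and 1.06 CPM in males). Its log2FC of 1.83 ± 0.39 came with 6 high libraries above every low library, all of AXB strains, with the highest at 43.2 CPM in the male AXB19a/PgnJ library. *Aqp5*, a water channel of glands (1.52 ± 0.38), ranged up to 133.1 CPM in females and to 2.30 CPM in males. In males it was near 0, with medians of 0.0166 and 0.0564 CPM in low and high libraries. Its log2FC was 2.99 in males (adjusted p = 0.02) and 0.93 in females (adjusted p = 0.49), so the male value rests on levels near 0. *Cyp2f2*, a cytochrome P450 (1.42 ± 0.36), reached 86.1 CPM in the male CXB11/HiAJ library, and without that library its log2FC was 1.10 (edgeR, adjusted p = 0.17). It did not pass with strain as a random block either (limma-voom, adjusted p = 0.066). Among those that fell, *Ptx3*, a soluble pattern recognition protein (-1.27 ± 0.33), was highest in the low male BXD19/TyJ library at 91.5 CPM, and its log2FC was -2.32 in males and -0.07 in females. Without the CXB11/HiAJ library *Ptx3* did not pass (edgeR, adjusted p = 0.067). By limma-voom *Vmn2r99*, *Aqp5*, *Ptx3*, *Thbs1* and *Slc34a2* did not pass (adjusted p from 0.08 to 0.72). The matricellular gene *Thbs1* had a log2FC of -1.22 ± 0.29, and the phosphate transporter gene *Slc34a2* of -1.20 ± 0.31.

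Markers of the cell types in the fat pad were measured beside these results. Of 85 listed markers of 10 cell types, 0 were called by edgeR, DESeq2 or limma-voom, and 11 had an unadjusted p under 0.05. Over all 17167 genes edgeR called 0.332% higher and 0.344% lower, and 1611 had an unadjusted p under 0.05. At these shares 0 of 85 does not set the markers apart from other genes. Adipocyte markers had a median log2FC of 0.14, endothelial markers of 0.01, progenitor markers of -0.12 and blood markers of 0.07. The summed TPM of the 9 adipocyte markers ranged from 8067 to 58639 in low and from 21640 to 54577 in high females, and from 29168 to 68221 in low and from 31724 to 62348 in high males. Larger medians with wide spread were seen for the 10 lymph node markers (0.96, with 10 of 10 above 0), the 10 skeletal muscle markers (-1.23, 10 of 10 below 0), the 10 macrophage markers (-0.34, 10 of 10 below 0) and the 9 mammary epithelial markers (0.50, 8 of 9 above 0). In females and males taken apart, the medians were -0.04 and 1.80 for lymph node, -0.55 and -1.81 for skeletal muscle, -0.45 and -0.22 for macrophage, -0.40 and 1.32 for mammary epithelial and 0.22 and -0.24 for adipocyte markers. The summed TPM of the mammary epithelial markers had medians of 1.99 and 6.1 in low and high males, against 730.0 and 595 in low and high females. The summed TPM of the skeletal muscle markers ranged from 15.4 to 1301 in low and from 11.9 to 561 in high males. That of the lymph node markers ranged from 7.81 to 1003 in low and from 5.12 to 1023 in high males. With the adipocyte, mammary, lymph node and muscle markers as covariates, 11 evening-arm genes rose and 5 morning-arm genes fell, and the counts over all genes were 87 higher and 61 lower. In bulk tissue, fewer cells of a type and less RNA per cell cannot be told apart.

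The neighbours of *Dbp* on the chromosome were also looked at. Within 100 kb, 10 genes were tested and 0 were called by edgeR, DESeq2 or limma-voom. Over all 17167 genes edgeR called 0.332% higher and 0.344% lower, so 0 of 10 does not set these genes apart. By edgeR, 2 of them (*Fgf21* and *Car11*) had an unadjusted p under 0.05, as had 1611 of all genes. The log2FCs of the 10 ran from -0.51 (*Fgf21*) to 0.33 (*Car11*). *Sphk2*, whose end overlaps that of *Dbp* by 737 bases on the other strand, had a log2FC of -0.05 ± 0.06.

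*Dbp* was then compared between the sexes within strains, since ranking within sex does not fix whether they go together. Over 58 strains with both libraries, log2 *Dbp* TPM in females and males had a Pearson r of 0.53 (two-sided permutation p = 5.0e-05) and a Spearman rho of 0.54 (permutation p = 4.0e-05), and r was 0.52 without the 2 strains farthest from the median. In 7 strains both libraries were high, in 6 both were low, and in 0 were the libraries at opposite ends. BALB/cJ was at 76.2 TPM in the female and 68.9 TPM in the male, and BXD50/RwwJ at 74.7 and 79.4 TPM. SM/J was lowest in both sexes, at 6.83 and 6.59 TPM, and BXD43/RwwJ was at 12.1 and 6.72 TPM.

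The level of *Dbp* also differed between ranges of the mouse number in the sample name, without a steady rise or fall along the number. The ranked libraries were split by mouse number into 4 bins of 34 or 35. The bin from 1055 to 1293 held 17 high and 4 low libraries, with a median of 48.2 TPM, and the bin from 24 to 798 held 12 high and 6 low, with a median of 33.1 TPM. The bin from 801 to 1054 held 2 high and 12 low, and the bin from 1297 to 1477 held 3 high and 12 low, with medians of 23.7 and 21.8 TPM. The labels do not say what the number stands for. Females and males of a strain often had close numbers, with a median difference of 41.5. In the 39 strains whose libraries lay in the same bin, r was 0.68 (permutation p = 3.0e-05) and rho 0.70 (permutation p = 1.0e-05, the smallest that 100000 permutations can give), and r was 0.64 without the 2 farthest strains. In the 19 strains whose libraries lay in different bins, r was 0.18 (permutation p = 0.46) and rho 0.16 (permutation p = 0.52), and r was 0.29 without the 2 farthest strains. The split was chosen after seeing the data, the difference between these correlations was not tested, and neither was the part of strain or mouse number in the level of *Dbp*.

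**Figure D5:**
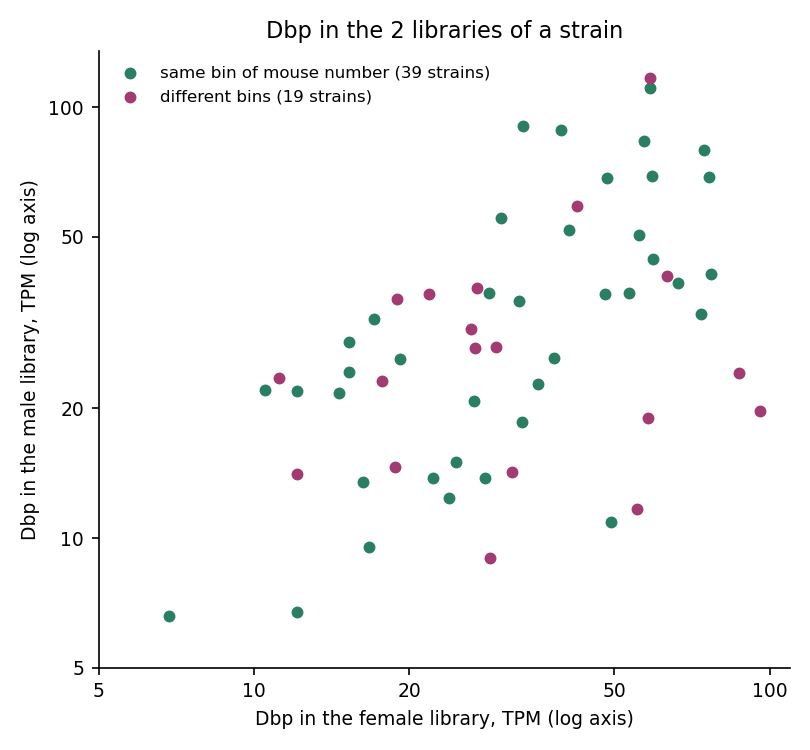
Dbp in TPM in the female (x axis) and male (y axis) library of each of 58 strains (log axes), green where the mouse numbers lie in the same bin (39 strains) and magenta where they lie in different bins (19 strains). Pearson r of the log2 values is 0.68 in the first and 0.18 in the second.

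With the bin of mouse number as a covariate, 37 genes were higher and 30 were lower, and 57 of the genes called without it remained called. With it, 9 evening-arm genes rose and 5 morning-arm genes fell. *Nr1d2* had a log2FC of 0.92 with this covariate and 0.95 without it, and *Arntl* of -1.07 and -1.20. Within BXD strains *Nr1d2* had a log2FC of 0.86 and within the other strains of 1.04, and *Npas2* of -1.77 and -1.95. The 15 called clock genes kept their direction in each of the 21 alternative analyses that gave them a value.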

How the data were processed

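The authors sequenced iWAT RNA from 141 mice, quantified it with kallisto 0.46.1 against Ensembl 97 (GRCm38) and summarised transcripts to genes with tximport. They deposited a table of estimated counts and a table of TPM, both with 36558 genes in every library, and the genes were named by matching Ensembl identifiers to GENCODE symbols (35856 matched). Of the estimated counts, 30.3% were not whole, and all were rounded to whole numbers. *Dbp* was ranked on the deposited TPM values within each sex, and the lowest and highest 1 in 4 libraries (rounded down) were compared.

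Genes were tested with edgeR 4.0.16 (filterByExpr, TMM factors computed once over the 138 ranked libraries, quasi-likelihood test, model with sex and *Dbp* group) in R 4.3.3. *Dbp* was removed before Benjamini-Hochberg adjustment over the other 17167 genes. The sex difference was an interaction term, and the slope in the middle libraries was fitted on log2 *Dbp* TPM. CPM values are scaled by TMM, and log2FC is high over low. The fits were tested on simulated data. Correlations used scipy 1.17.1, and their permutation tests shuffled the values with numpy 2.4.6 (100000 resamples). Alternatives used DESeq2 1.42.0, limma 3.58.1, other scalings, filters, cuts and covariates.

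Members, gene lists and tests were chosen with earlier results of these data known. The named genes were *Dbp*, all evening-arm and morning-arm genes, the 10 called genes with the lowest p and the 5 with the largest log2FC in each direction (mean of at least 1 CPM, predicted genes left out), up to 4 called genes of every other list, up to 5 genes with a sex difference, and genes within 100 kb of *Dbp*. No 2 libraries had identical counts. Among called genes, *Mat2a* and 1 gene without a symbol had identical values and cannot be told apart, and so had *Pygm* and 1 other. Some listed genes are not reported here by name. Promoter motifs were searched in 32851 RefSeq promoters (GRCm38.p6) on both strands.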

Additional observations from a re-analysis of the deposited data

Results flagged for a closer look

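The contrast of high and low *Dbp* libraries differed between the sexes for 1 gene, *Krt14*, a keratin of basal epithelial cells. The difference of the male from the female log2FC was 4.41 (edgeR's quasi-likelihood test of the interaction, adjusted p = 0.025). *Krt14* passed the filter on low counts through females, and in males it was at or near 0, so the size of this difference depends on very few counts. In males, counts above 3 were reached in 0 of 18 low and 7 of 18 high libraries, and the level ranged from 0 to 0.062 CPM in low and from 0 to 1.19 CPM in high libraries, 7 of 18 high libraries being above every low library. In females it ranged from 3.14 to 59.3 CPM in low and from 3.89 to 36.2 CPM in high libraries. The summed TPM of the 9 mammary epithelial markers, which include *Krt14*, ranged from 0.828 to 27.3 in low and from 0.423 to 56.9 in high males, and the part of these cells in the difference was not tested. limma-voom called 0 genes for the sex difference, which 2280 genes passed at an unadjusted p under 0.05.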

How the results depend on the processing

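As reported, 57 genes were higher and 59 were lower. The number called moved by over 1.5 times to 221 with no filter (48.4% of them higher), 37 on log2(TPM + 1) (56.8%), 35 on log2(TPM + 0.1) (60%), 383 with wider groups taken from each end (49.9%), 25 with narrower groups (80%), 287 for the slope over all libraries (50.9%), 68 with strain as a random block in limma-voom (57.4%, against 83 by limma-voom without the block), 67 with the bin of mouse number as a covariate (55.2%), 14 in BXD strains (71.4%) and 17 in the other strains (52.9%), the last pair having fewer libraries. For the others the cause was not tested. The lower count alone moved to 92 with DESeq2 (82 higher), 35 with limma-voom (48 higher) and 38 with library totals (51 higher), and the higher count alone to 88 where *Dbp* was ranked by CPM (40 lower, so that 68.8% were higher against 49.1% as reported) and 87 with tissue makeup as covariates (61 lower). The median log2FC of all genes stayed between -0.01 and 0.03. Between 7 and 11 evening-arm genes rose in every alternative. The count of morning-arm genes that fell was 3, against 5, on log2(TPM + 1), on log2(TPM + 0.1), with narrower groups, in BXD strains and in the other strains.

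Of 314 values of the 15 called clock genes, 290 stayed called and 0 changed sign. Of 458 values of the 22 other called named genes, 318 stayed called, and *Vmn2r99* turned to -0.27 in BXD strains. For the sex difference limma-voom called 0 genes against 1, and for the slope in the middle libraries 1 against 11. The r of *Dbp* between the sexes was 0.18 in strains with mouse numbers in different bins and from 0.47 to 0.68 in the other subsets. Leaving out the library of mouse 187, tissue makeup in the middle libraries and the split of strains by bin were chosen after seeing the data. With strain as a random block, used because 13 strains gave 2 libraries to the contrast, the clock genes *Per1* and *Clock* were not called. No paired analysis was possible because 0 strains had a high and a low library and replicate numbers are mouse numbers.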

Other observations

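The 4 genes below were picked from the called genes after their values were seen (edgeR's quasi-likelihood test), and no list of chemokine or matrix genes was counted. The chemokine genes *Ccl2* and *Ccl7*, which attract monocytes, had log2FCs of -0.98 ± 0.25 (adjusted p = 0.039) and -0.93 ± 0.24 (adjusted p = 0.045). The matrix genes *Mfap4* and *Spon2* had log2FCs of -1.02 ± 0.26 (adjusted p = 0.038) and -0.84 ± 0.17 (adjusted p = 0.0024). In the middle libraries, *Ccl2*, *Ccl7* and *Mfap4* had slopes of -0.64, -0.74 and -0.87 (unadjusted p = 0.035, 0.022 and 0.0067), and *Spon2* had a slope of 0.03 (unadjusted p = 0.9). The 10 macrophage markers were all below 0 in the contrast, with a median log2FC of -0.34 and 0 called by edgeR, DESeq2 or limma-voom (3 at an unadjusted p under 0.05), and their part in these differences was not tested.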
